A study of Mus musculus with 48 samples.

Results

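The genes described here are the mouse cytochrome P450 genes of families 1, 2 and 3, the enzymes that oxidize drugs, foreign chemicals, steroids and fatty acids in the liver. They were chosen by name, as every gene symbol that starts with Cyp, a family number of 1, 2 or 3, a subfamily letter and a gene number. The rule uses no measured value, but it was set with earlier results of these data known. The rule found 62 of the 24453 genes in the exon table, and the same 62 among the 20771 genes of the intron table. The data come from livers of Nono-/- mice and of wild-type mice. The NONO protein, missing in the mutant, binds RNA and DNA and is found in nuclear paraspeckles. All mice were of the C57BL/6 strain and 14 weeks old, were kept on a cycle of 12 h light and 12 h dark, and for their last week were fed in the dark phase only. Collection times, 12 in all and 2 h apart, are given as zeitgeber time (ZT), counted in hours from lights on, each liver sample being a pool of 2 mice that gave a library of total RNA and another of nuclear RNA. This makes 4 groups of 12 libraries: total RNA of Nono-/-, total RNA of wild type, nuclear RNA of Nono-/- and nuclear RNA of wild type.

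P450 enzymes hold a heme group and sit in the membrane of the endoplasmic reticulum, where P450 oxidoreductase, encoded by Por, hands them electrons. Hepatocytes make most of the liver's supply, much of it near the central vein. Their transcription is known to respond to the receptors AhR, CAR and PXR, to growth hormone and sex, and to the daily cycle through the clock-controlled factors DBP, TEF and HLF.

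Values are FPKM, reads normalised by the authors for exon or intron length and for library size, so that levels can be set side by side between genes. In total RNA, exon reads come mainly from mature messenger RNA, whereas intron reads from nuclei come from transcripts not yet spliced. There was 1 library per genotype, fraction and time point, so the p-values measure the spread of pools taken at different times around a smooth 24 h curve. Genotype effects are log2 differences, Nono-/- minus wild type, of FPKM scaled to the median gene of each library. They come from limma with Benjamini-Hochberg adjusted p-values over all genes tested, and an effect was called past an adjusted p of 0.05. Where a gene is described by 3 values, these are the lowest, the median and the highest of the 12 libraries of a genotype, in FPKM as deposited. In whole-liver RNA, fewer cells of a type and less RNA per cell cannot be told apart.

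Depth ran from 9.91 to 28.9 M reads per library. Nono exons stood at 0 to 0.091 FPKM in the Nono-/- libraries of total RNA, against 8.74 to 10.7 FPKM in wild type. Introns took 18.5% ± 2.41 of the reads of Nono-/- total RNA and 22.1% ± 1.72 of those of wild-type total RNA (SD, n = 12 each). No label used here gives the sex of the mice. The X-linked RNA Xist reached at most 0.029 FPKM in Nono-/- total RNA and 0.039 FPKM in wild-type total RNA. In nuclear RNA it reached 0.302 FPKM in Nono-/- and 0.168 FPKM in wild type. The Y-linked Ddx3y lay at 21.7 to 40.9 FPKM in Nono-/- total RNA and 19.7 to 43.9 FPKM in wild-type total RNA. Eif2s3y, also Y-linked, lay at 24.5 to 36.2 and 23.7 to 45.7 FPKM. Every pool thus expressed Y-linked genes and very little Xist.

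Many P450 genes arose by duplication and still resemble each other, which bears on how reads can be assigned. To show how close neighbouring copies are, the 250 bases before the annotated start are given for 3 pairs that the results return to, from RefSeq for GRCm38.p6, the build known as mm10. They read 5′ to 3′ on the gene's own strand, and capitals mark bases that differ from the partner or have no partner base in the alignment.
Cyp2a5: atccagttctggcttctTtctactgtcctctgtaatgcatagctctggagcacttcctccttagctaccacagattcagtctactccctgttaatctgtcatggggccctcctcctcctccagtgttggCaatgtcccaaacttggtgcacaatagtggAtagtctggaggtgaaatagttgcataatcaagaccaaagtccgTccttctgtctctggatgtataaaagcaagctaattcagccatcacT
Cyp2a4: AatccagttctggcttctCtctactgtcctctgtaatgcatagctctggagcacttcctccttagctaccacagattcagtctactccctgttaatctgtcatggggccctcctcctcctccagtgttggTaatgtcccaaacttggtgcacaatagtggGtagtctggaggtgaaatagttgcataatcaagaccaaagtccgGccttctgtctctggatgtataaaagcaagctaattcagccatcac
Cyp3a25: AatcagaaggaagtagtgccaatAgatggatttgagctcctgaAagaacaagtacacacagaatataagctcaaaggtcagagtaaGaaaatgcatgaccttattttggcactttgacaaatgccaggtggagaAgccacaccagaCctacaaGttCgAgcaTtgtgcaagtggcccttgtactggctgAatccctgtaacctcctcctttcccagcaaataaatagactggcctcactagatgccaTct
Cyp3a59: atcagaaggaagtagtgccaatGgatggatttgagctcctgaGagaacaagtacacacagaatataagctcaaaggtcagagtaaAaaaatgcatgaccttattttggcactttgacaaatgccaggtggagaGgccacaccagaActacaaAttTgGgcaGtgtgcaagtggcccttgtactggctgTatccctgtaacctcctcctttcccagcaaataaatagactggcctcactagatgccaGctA
Cyp2c37: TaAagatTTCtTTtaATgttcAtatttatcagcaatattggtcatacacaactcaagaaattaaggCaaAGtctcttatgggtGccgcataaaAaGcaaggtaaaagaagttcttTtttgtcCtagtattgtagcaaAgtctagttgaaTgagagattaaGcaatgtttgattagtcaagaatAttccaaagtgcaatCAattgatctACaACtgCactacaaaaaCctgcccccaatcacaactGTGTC
Cyp2c50: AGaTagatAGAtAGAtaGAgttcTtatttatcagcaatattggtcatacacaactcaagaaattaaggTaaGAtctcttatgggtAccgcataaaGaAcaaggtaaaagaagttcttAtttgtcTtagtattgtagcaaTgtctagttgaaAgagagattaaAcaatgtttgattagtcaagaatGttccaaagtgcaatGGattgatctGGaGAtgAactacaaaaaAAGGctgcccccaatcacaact
The Cyp2a5 stretch is chr7:26835089-26835338 and the Cyp2a4 stretch chr7:26306942-26307191, both on the plus strand, and 245 of 250 bases were the same. The Cyp3a25 stretch is chr5:146009619-146009868 on the minus strand and the Cyp3a59 stretch chr5:146079008-146079257 on the plus strand, with 238 of 250 bases the same. The Cyp2c37 stretch is chr19:39992174-39992423 and the Cyp2c50 stretch chr19:40089429-40089678, both on the plus strand, with 215 of 250 bases the same. Each stretch lies upstream of the first exon.

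Over all promoter windows of RefSeq (250 bases before to 50 after the start, 52 members found), 3 motifs known from P450 regulation were counted. The D-box bound by DBP, TEF and HLF, searched as TTANGTAA on both strands, was in the window of 1 of 52 members, Cyp2c38, and in 2.32% of all windows of that length. The E-box CACGTG was in 1 of 52, Cyp2j6, and in 7.15% of all windows. The AhR core GCGTG, on either strand, was in 9 of 52, or 17.3%, Cyp1a1 and Cyp1b1 among them, and in 32.4% of all windows. Inside the transcripts the copies also share runs. Of all 50-base windows in the Cyp2a5 transcript 31.0% were found unchanged in Cyp2a4, and 36.1% the other way round. The shared part was 24.2% of Cyp3a25 windows with Cyp3a59, 22.4% of Cyp2c50 windows with Cyp2c37 and 21.1% of Cyp2c37 windows with Cyp2c50. For Cyp2j9, Cyp2c70 and Cyp2f2 no 50-base window was shared with another gene. Reads from shared runs can be counted to either copy or dropped, so values of such copies are uncertain. Cyp2c40, Cyp2c67, Cyp2c69, Cyp3a41a and Cyp3a41b shared more than 50% of their windows, Cyp3a41a 98.6% of them.

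The members spanned the whole range of liver expression. Averaged over the 24 libraries of total RNA, exons of 17 members stood at 100 FPKM or more, of 10 between 10 and 100, of 7 between 1 and 10, of 14 between 0.1 and 1, and of 14 below 0.1 FPKM. Cyp2b23 and Cyp2j12 were listed at 0 in every library. Together the members took 2.49 to 3.39% of the exon reads in Nono-/- total RNA and 2.05 to 3.06% in wild-type total RNA, ranges that overlap. In nuclear RNA the share was 1.09 to 1.57% in Nono-/- and 0.947 to 1.36% in wild type.

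A few genes carried most of that signal. Cyp2e1 (chr7:140763832-140774977, plus strand), which oxidizes ethanol and acetaminophen, held 33.1% of the summed FPKM of the members, with 2655, 3576 and 5051 FPKM in Nono-/- and 1903, 3123 and 4544 FPKM in wild type. Cyp3a11, the main mouse CYP3A enzyme for drugs, held 25.1%, with 2064, 2953 and 4186 FPKM in Nono-/- and 1867, 2236 and 2794 FPKM in wild type. Cyp2c29, an epoxygenase of arachidonic acid, came next with 751, 877 and 1059 FPKM in Nono-/- and 611, 757 and 986 FPKM in wild type.
None of these leading genes passed for genotype in exons of total RNA with scaled libraries, and the genotypes overlapped in all of them. The estimates were 0.14 (adjusted p = 0.26) for Cyp2e1, 0.30 (adjusted p = 0.104) for Cyp3a11 and 0.19 (adjusted p = 0.101) for Cyp2c29. On FPKM as deposited, with no scaling of libraries, limma did call Cyp2c29, but not Cyp2e1 or Cyp3a11.
Other abundant members were these. Cyp2d9, a testosterone 16-alpha-hydroxylase that males make more of, had 214, 329 and 441 FPKM in Nono-/- and 218, 335 and 422 FPKM in wild type. Cyp2a12 had 188, 220.4 and 257 FPKM in Nono-/- and 207, 219 and 260.2 FPKM in wild type, and Cyp2d26 had 148, 227 and 278 FPKM in Nono-/- and 129, 219 and 291 FPKM in wild type. Cyp1a2, which oxidizes caffeine, had 101, 136 and 180.2 FPKM in Nono-/- and 85.0, 137 and 218 FPKM in wild type.
The genotypes overlapped in each of these genes. At the other end, Cyp1a1, the classical AhR target, averaged 0.422 ± 0.205 FPKM in Nono-/- and 0.423 ± 0.203 FPKM in wild type (SD, n = 12 each) in total exons, below the filter.

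**Figure D1:**
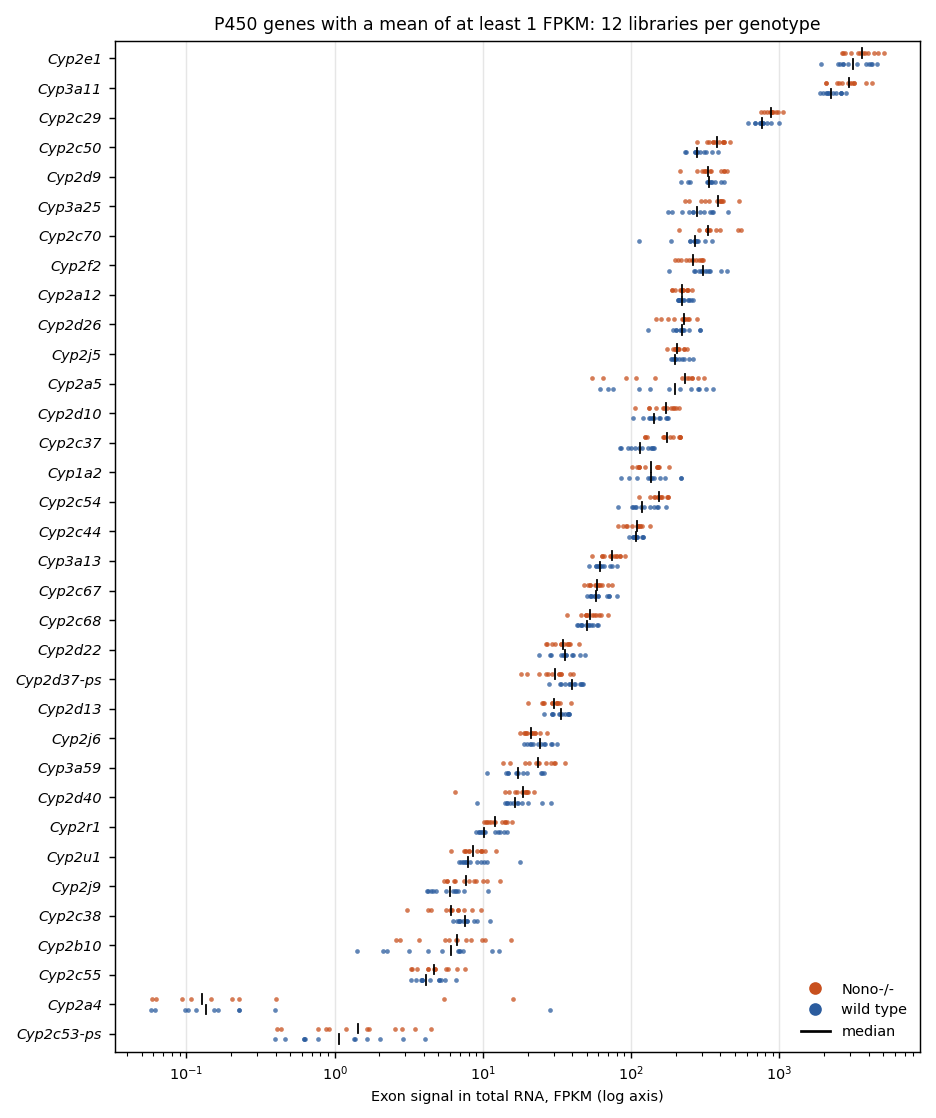
Exon FPKM in total RNA (log axis) of the 34 P450 genes that average 1 FPKM or more, ordered by level; each point is a library, 12 for Nono-/- (upper row of each gene) and 12 for wild type (lower row), and black ticks are medians; values of 0 are not drawn. Levels run over more than 3 powers of 10, genotypes overlap in every gene, and Cyp2a4 shows 3 libraries far to the right of the others.

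In Cyp2a4, 3 pools stood apart from the others. The gene encodes a testosterone 15-alpha-hydroxylase that mouse females make more of, while its near-copy Cyp2a5 hydroxylates coumarin. In total RNA the exons of Cyp2a4 reached 5.44 FPKM in the Nono-/- pool of ZT10, 15.99 FPKM in the Nono-/- pool of ZT22 and 28.5 FPKM in the wild-type pool of ZT18. The other 21 pools lay between 0 and 0.403 FPKM, with a median of 0.107 FPKM.
The separate nuclear libraries of those 3 pools were high as well. Nuclear exons stood at 1.01, 0.643 and 0.554 FPKM in the Nono-/- pools of ZT10 and ZT22 and the wild-type pool of ZT18, against 0 to 0.059 FPKM in the other 21. Cyp2a5 exons in total RNA were 238, 221 and 253 FPKM in the same pools, within the range of the other pools. The genotype effect on Cyp2a4 was 0.19 (adjusted p = 0.91), and it was tested only because these 3 pools lifted its mean over the filter. Cyp2b9, another gene that mouse females make more of, had 0.358, 0.119 and 2.07 FPKM in these pools, the last being its highest value in any pool. In every pool, these 3 included, total RNA held the Y-linked Ddx3y at 19.7 FPKM or more and Xist at 0.039 FPKM or less.

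The genotype effect was first read in exons of total RNA. Of the 62 members 37 passed the filter of 0.5 FPKM and were tested, and 25 were not. In limma 5 were higher in Nono-/-, against 4.49% of all 11352 genes tested, and 2 were lower, against 6.57% of all genes. The median effect was 0.06 over the 37 members and -0.0035 over all genes. The 5 higher genes were 3 CYP2C and 2 CYP3A genes, while the lower ones were Cyp2f2 and the pseudogene Cyp2d37-ps.

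Cyp2c37, Cyp2c50 and Cyp2c54 lie within a cluster on chromosome 19 and encode enzymes that oxidize arachidonic acid. Cyp2c37 (chr19:39992424-40012243, plus strand) had exon levels of 124, 174 and 214 FPKM in Nono-/- and 84.2, 115 and 143 FPKM in wild type in total RNA. It was higher in Nono-/- at 12 of 12 times, and 9 of the 12 Nono-/- libraries lay above every wild-type library. The log2 difference was 0.57 ± 0.12 (SE, adjusted p = 0.00625), the largest rise among the members called in this table.
Cyp2c50 (chr19:40089679-40113955) had 278, 378 and 466 FPKM in Nono-/- and 231, 278 and 383 FPKM in wild type, was higher at 12 of 12 times, and differed by 0.36 ± 0.10 (SE, adjusted p = 0.0198). Cyp2c54 had 113, 155 and 178 FPKM in Nono-/- and 81.7, 119 and 173 FPKM in wild type. It was also higher at 12 of 12 times, but its difference of 0.31 (adjusted p = 0.0711) did not pass. With each time point as a block it did (adjusted p = 0.0441), as did Cyp2b10, higher (0.0346), and Cyp2d13, lower (0.0332). With no scaling Cyp2c54 and Cyp2c29 were called too, and 9 members were called in all, against 11.5% of all genes.
Cyp2c70, which makes muricholic acids, the bile acids typical of mice, had 210.5, 329.5 and 553 FPKM in Nono-/- and 113, 269 and 351 FPKM in wild type. It was higher at 11 of 12 times, and the difference was 0.45 ± 0.14 (SE, adjusted p = 0.0394). Its groups overlapped, with 4 Nono-/- libraries above every wild-type library.

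Of the CYP3A genes on chromosome 5, Cyp3a25 (chr5:145977194-146009618, minus strand) had 229, 386 and 530.0 FPKM in Nono-/- and 178, 276 and 449 FPKM in wild type. It was higher in Nono-/- at 11 of 12 times, with a difference of 0.32 ± 0.09 (SE, adjusted p = 0.0284). Its neighbour Cyp3a59 had 13.6, 23.7 and 36.0 FPKM in Nono-/- and 10.7, 17.1 and 25.7 FPKM in wild type, and the difference was 0.37 ± 0.12 (SE, adjusted p = 0.0471).
The groups overlapped in both genes. The remaining tested CYP3A genes, Cyp3a11 and Cyp3a13, had positive estimates that did not pass. The calls of Cyp3a25, Cyp3a59 and Cyp2c70 were lost on leaving out 6, 8 and 9 of the 12 time points, with adjusted p up to 0.0699, 0.119 and 0.0975, and that of Cyp2c50 on leaving out ZT0 (adjusted p = 0.0542). Those of Cyp2c37, Cyp2f2 and Cyp2d37-ps held without any single time point.

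Cyp2f2 (chr7:27119955-27133660, plus strand), which activates naphthalene, had 197, 260.3 and 306 FPKM in Nono-/- and 179, 306 and 444 FPKM in wild type. It was lower in Nono-/- at 11 of 12 times, and the difference was -0.29 ± 0.07 (SE, adjusted p = 0.0118). Cyp2d37-ps, a pseudogene (chr15:82688750-82690058, minus strand) with an exon length of 668 bases in the table, had 18.2, 30.8 and 40.4 FPKM in Nono-/- and 28.1, 40.0 and 47.4 FPKM in wild type. It was lower at 12 of 12 times, with a difference of -0.46 ± 0.10 (SE, adjusted p = 0.00785).
Both groups overlapped in each of these genes. The share of reads in introns moved with genotype, as given above. With that share as a covariate none of the 7 calls in total RNA exons passed (limma, 0 of 37 members and 23 of all 11352 genes), with estimates of 0.44 for Cyp2c37, 0.27 for Cyp2c50, -0.35 for Cyp2f2 and -0.28 for Cyp2d37-ps.

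**Figure D2:**
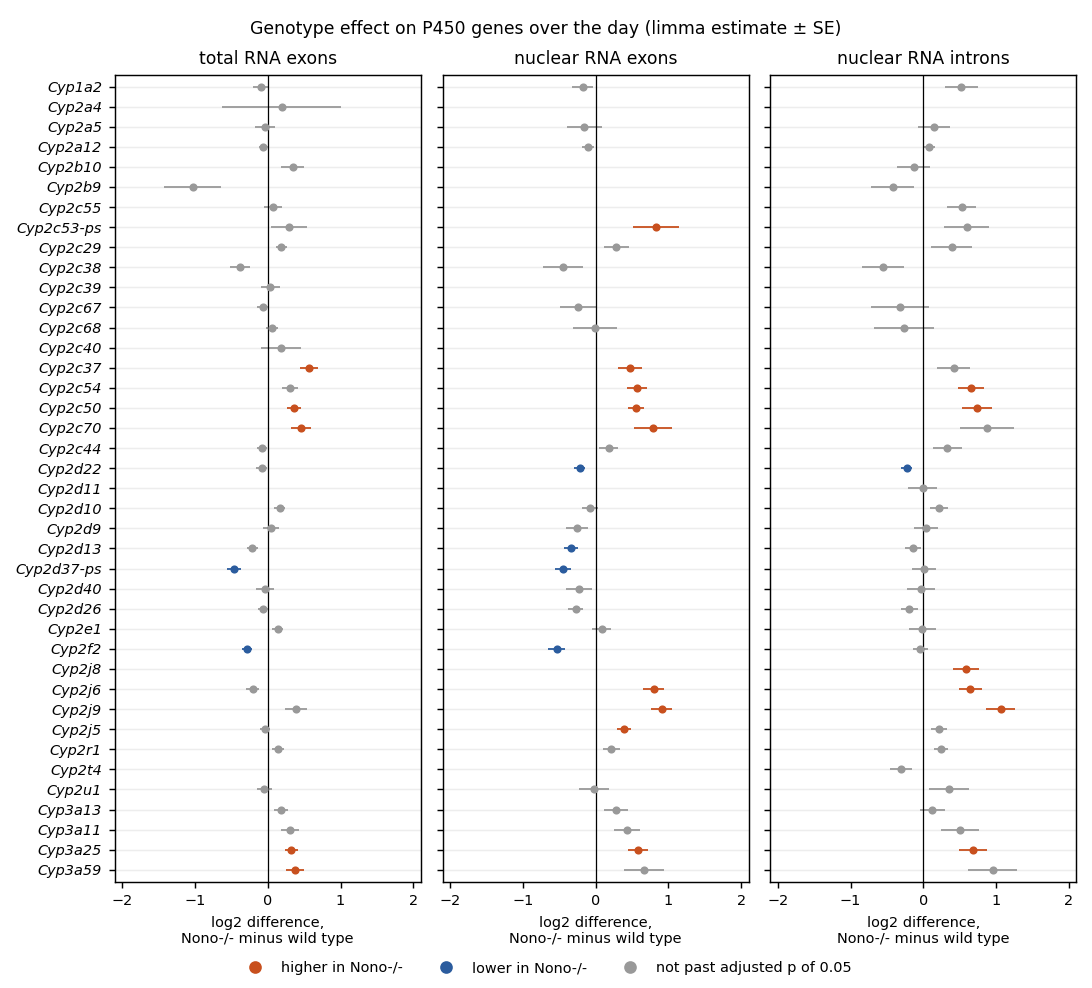
Log2 difference, Nono-/- minus wild type, for each P450 gene tested in total RNA exons, nuclear RNA exons and nuclear RNA introns; points are limma estimates with SE bars, coloured where the adjusted p is under 0.05, and ordered by subfamily and position. Higher calls fall on Cyp2c, Cyp2j and Cyp3a genes and lower calls on Cyp2d genes and Cyp2f2; genes without a point in a panel were below the filter there.

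In nuclear RNA more members differed, as did more genes of all kinds. Of the 31 members tested in nuclear exons, 9 were higher in Nono-/-, against 15.9% of all 10500 genes tested, and 4 were lower, against 18.5%. The members' median effect was 0.08 and that of all genes 0.0013. With FPKM as deposited, with no scaling of libraries, the split was 5 higher, against 3.62% of all genes, and 6 lower, against 32.4%, and the median of all genes was -0.20. With the time-point block Cyp2c29 (adjusted p = 0.0276), Cyp3a11 (0.0159) and Cyp3a59 (0.0279) were also called higher and Cyp2c38 (0.0381) lower.

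The smallest adjusted p-values among the members were those of Cyp2j9 and Cyp2j6, genes of the CYP2J cluster on chromosome 4, whose enzymes include epoxygenases of fatty acids. Cyp2j9 (chr4:96568429-96591485, minus strand) had 15, 24.4 and 37.7 FPKM in Nono-/- and 10.04, 14.2 and 31.2 FPKM in wild type in nuclear exons. It was higher in Nono-/- at 11 of 12 times, and the difference was 0.91 ± 0.15 (SE, adjusted p = 0.000993). Cyp2j6 (chr4:96516138-96553651, minus strand) had 4.26, 7.95 and 13.6 FPKM in Nono-/- and 4.10, 4.80 and 8.48 FPKM in wild type and was also higher at 11 of 12 times.
Its difference was 0.80 ± 0.15 (SE, adjusted p = 0.00178). Cyp2j5 (chr4:96627432-96664119, minus strand) was the most abundant of the 3, with 39.2, 51.4 and 69.3 FPKM in Nono-/- and 33.5, 46.0 and 59.3 FPKM in wild type in nuclear exons and a difference of 0.39 ± 0.10 (SE, adjusted p = 0.00635). The groups overlapped for all 3 genes. The call of Cyp2j5 was lost with no scaling, while those of Cyp2j6 and Cyp2j9 passed in every alternative.

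None of these 3 genes passed in exons of total RNA. Cyp2j6 had 17.8, 21.2 and 27.0 FPKM in Nono-/- and 18.8, 24.1 and 31.5 FPKM in wild type there and was lower in Nono-/- at 10 of 12 times, with an estimate of -0.21 (adjusted p = 0.143). Cyp2j5 had 174, 204 and 236 FPKM in Nono-/- and 186, 199 and 262 FPKM in wild type, with an estimate of -0.04 (adjusted p = 0.751). Cyp2j9 had 5.48, 7.75 and 13.1 FPKM in Nono-/- and 4.18, 5.96 and 10.9 FPKM in wild type, with an estimate of 0.39 (adjusted p = 0.0892).
The difference between fractions was tested within pools. The ratio of nuclear to total exon signal differed by 1.004 ± 0.20 (SE, adjusted p = 0.00501) for Cyp2j6, 0.52 ± 0.10 (SE, adjusted p = 0.00427) for Cyp2j9 and 0.43 ± 0.11 (SE, adjusted p = 0.014) for Cyp2j5, all higher in Nono-/-. Cyp2j6 nuclear FPKM was 0.173, 0.389 and 0.710 of total FPKM at the lowest, median and highest of the Nono-/- pools, and 0.139, 0.204 and 0.392 in wild type. The pseudogene Cyp2c53-ps was the other member called, at 0.54 ± 0.19 (SE, adjusted p = 0.0473). So 4 of 31 members had a higher ratio in Nono-/-, against 10.8% of all 9871 genes tested, and limma called 0 lower, against 9.28%, with 20.1% of all genes called in either direction and a median effect of 0.01 over the members and 0.02 over all genes. At an unadjusted p under 0.05 the ratio of 5 of 31 members differed in either direction, against 37.5% of all genes. With no scaling the split was 2 higher, against 2.01% of all genes, and 3 lower, against 24.8%, and Cyp2j6 and Cyp2j9 were the higher ones. With the difference in intron share between the libraries of a pool as a covariate no member passed (limma, 6 of all 9871 genes), with estimates of 1.40 for Cyp2j6, 0.41 for Cyp2j9, 0.48 for Cyp2j5 and -0.05 for Cyp2c53-ps.

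**Figure D3:**
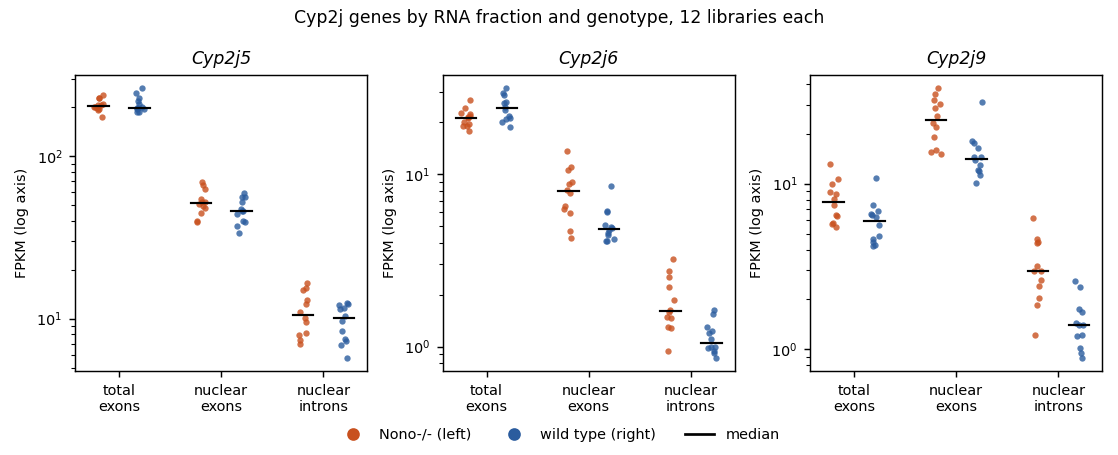
FPKM (log axis) of Cyp2j5, Cyp2j6 and Cyp2j9 in total RNA exons, nuclear RNA exons and nuclear RNA introns; points are the 12 libraries of Nono-/- (left of each pair) and of wild type (right), and lines are medians. The Nono-/- medians of Cyp2j6 and Cyp2j9 are higher in both nuclear measures, while that of Cyp2j6 is lower in total RNA, 21.2 against 24.1 FPKM.

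In nuclear introns 3 genes of the same cluster were higher too. Nuclear introns of Cyp2j9 had 1.22, 2.97 and 6.24 FPKM in Nono-/- and 0.888, 1.41 and 2.57 FPKM in wild type, and 8 of the 12 Nono-/- libraries lay above every wild-type library. The difference was 1.06 ± 0.20 (SE, adjusted p = 0.00297). Cyp2j6 had 0.948, 1.60 and 3.23 FPKM in Nono-/- and 0.860, 1.05 and 1.64 FPKM in wild type and differed by 0.64 ± 0.16 (SE, adjusted p = 0.0106).
The low-level gene Cyp2j8 had nuclear introns at 0.0600, 0.151 and 0.383 FPKM in Nono-/- and 0.0360, 0.0840 and 0.189 FPKM in wild type. Its difference was 0.59 ± 0.17 (SE, adjusted p = 0.0251), and the call was lost without ZT6, ZT10 or ZT18 (adjusted p up to 0.0665). Nuclear introns of Cyp2j5 had an estimate of 0.21 (adjusted p = 0.192), which did not pass.
Over all members, 37 were tested in nuclear introns. In limma 6 were higher in Nono-/-, against 8.48% of all 12055 genes, and 1 was lower, against 9.46%, with 17.9% of all genes called in either direction. The members' median was 0.21 and that of all genes 0.00064. With each time point as a block, which pairs the genotypes by time, 14 members were higher, against 10.9% of all genes, and 1 was lower, against 11.7%. The 9 members called only with the block were Cyp1a2, Cyp2c44, Cyp2c53-ps, Cyp2c55, Cyp2j5, Cyp2r1, Cyp3a11 and Cyp3a59, higher, and Cyp2c38, lower, with adjusted p from 0.0135 for Cyp2c55 to 0.0495 for Cyp2r1.

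Of the 5 genes higher in total RNA exons, Cyp2c37, Cyp2c50, Cyp2c70 and Cyp3a25 were also called higher in nuclear exons, while Cyp3a59 had an estimate of 0.67 (adjusted p = 0.0606). Cyp2c50 had 11.3, 15.5 and 27.6 FPKM in Nono-/- and 8.54, 13.4 and 26.9 FPKM in wild type in nuclear exons, with a difference of 0.55 ± 0.11 (SE, adjusted p = 0.00209). Its intron entry covers only 761 bases of another isoform and had 3.48, 6.11 and 12.2 FPKM in Nono-/- and 1.47, 3.75 and 16.1 FPKM in wild type in nuclear RNA, with a difference of 0.74 ± 0.20 (SE, adjusted p = 0.0181). Cyp3a25 nuclear exons had 157, 268 and 510.2 FPKM in Nono-/- and 114, 224 and 335 FPKM in wild type, with a difference of 0.59 ± 0.14 (SE, adjusted p = 0.00555).
Cyp2c50 and Cyp3a25 were the 2 members called in all 4 tables. The Cyp2c50 intron entry averaged 21.3 FPKM in Nono-/- and 17.6 FPKM in wild type in total RNA, but 7.36 and 5.39 FPKM in nuclear RNA. Introns of Cyp2c37 went the other way, at 1.75 and 1.53 FPKM in total RNA and 6.83 and 5.18 FPKM in nuclear RNA, as did those of Cyp2c54. Whether the Cyp2c50 entry counts only unspliced transcripts was not tested. Cyp3a25 nuclear introns had 42.4, 74.6 and 139.9 FPKM in Nono-/- and 25.1, 55.7 and 84.8 FPKM in wild type, and 5 Nono-/- libraries lay above every wild-type library. The difference was 0.68 ± 0.19 (SE, adjusted p = 0.0202), lost without ZT6 or ZT18 (adjusted p up to 0.0753).
Cyp2c54, not called in total exons, was called in nuclei. Nuclear exons had 9.57, 14.6 and 24.2 FPKM in Nono-/- and 7.58, 10.98 and 24.1 FPKM in wild type and differed by 0.57 ± 0.14 (SE, adjusted p = 0.00582). Nuclear introns had 2.65, 5.28 and 7.64 FPKM in Nono-/- and 1.83, 3.16 and 7.73 FPKM in wild type and differed by 0.65 ± 0.17 (SE, adjusted p = 0.0146). This call was lost without ZT6 or ZT18 (adjusted p up to 0.0542) and with the intron share as a covariate (adjusted p = 0.0601).
The 3 further nuclear exon calls overlapped widely between genotypes. Cyp2c70 had 11.5, 39.3 and 82.0 FPKM in Nono-/- and 9.43, 21.9 and 74.5 FPKM in wild type (0.79, adjusted p = 0.0286), Cyp2c37 had 6.89, 13.4 and 20.7 FPKM in Nono-/- and 6.09, 10.2 and 15.98 FPKM in wild type (0.47, adjusted p = 0.0345), and Cyp2c53-ps had 0.794, 4.55 and 13.4 FPKM in Nono-/- and 0.459, 1.98 and 11.3 FPKM in wild type (0.83, adjusted p = 0.0496). These calls were lost on leaving out 7, 6 and 10 of the 12 time points, with adjusted p up to 0.0751, 0.0854 and 0.118. They were also lost with no scaling (adjusted p = 0.0898, 0.192 and 0.112) and with the intron share as a covariate (0.179, 0.140 and 0.287).

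The lower genes in nuclear exons were Cyp2f2 and 3 CYP2D genes. Cyp2f2 had 7.42, 19.1 and 29.4 FPKM in Nono-/- and 18.6, 28.6 and 51.6 FPKM in wild type, and 6 of the 12 Nono-/- libraries lay below every wild-type library. The difference was -0.54 ± 0.12 (SE, adjusted p = 0.0045). In nuclear introns Cyp2f2 had 5.13, 7.96 and 10.1 FPKM in Nono-/- and 5.95, 7.85 and 10.7 FPKM in wild type, with an estimate of -0.04 (adjusted p = 0.795), and the groups overlapped.
Cyp2d37-ps had 33.4, 69.8 and 153 FPKM in Nono-/- and 79.3, 106 and 177 FPKM in wild type in nuclear exons and differed by -0.45 ± 0.11 (SE, adjusted p = 0.007). Its nuclear introns, 636 bases in the table, had an estimate of 0.01 (adjusted p = 0.973). Cyp2d13, listed as a non-coding transcript, had 26.0, 48.4 and 76.6 FPKM in Nono-/- and 43.5, 72.7 and 105 FPKM in wild type and differed by -0.33 ± 0.10 (SE, adjusted p = 0.0142), a call lost without ZT22 (adjusted p = 0.0515). With the intron share as a covariate the nuclear exon calls of Cyp2d37-ps (adjusted p = 0.0612), Cyp2d13 (0.122) and Cyp2d22 (0.153) were lost.
Cyp2d22 had 7.05, 10.49 and 17.6 FPKM in Nono-/- and 10.2, 13.6 and 21.5 FPKM in wild type in nuclear exons and differed by -0.22 ± 0.07 (SE, adjusted p = 0.0283). In nuclear introns it had 2.79, 3.70 and 5.5 FPKM in Nono-/- and 3.73, 4.33 and 6.11 FPKM in wild type and differed by -0.23 ± 0.08 (SE, adjusted p = 0.0448). The exon call was lost on leaving out 7 of 12 time points and the intron call on 10, with adjusted p up to 0.0984 and 0.114, and both were lost with each time point as a block.

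The calls in introns of total RNA depended on scaling. Of 34 members tested, 6 were higher in Nono-/-, against 7.11% of all 9422 genes, and 1 was lower, against 8.87%. With FPKM as deposited the split was 0 higher in limma, against 1.08% of all genes, and 5 lower, against 36.6%, with the median of all genes at -0.21. With scaling 13 of 34 members had an unadjusted p under 0.05, against 31.4% of all genes. With the time-point block Cyp2c70 was also called (0.50, adjusted p = 0.0367) and Cyp3a25 was not (adjusted p = 0.0799). Cyp2j9 had 0.220, 0.570 and 1.14 FPKM in Nono-/- and 0.214, 0.342 and 0.655 FPKM in wild type and differed by 0.72 ± 0.18 (SE, adjusted p = 0.0129). The other calls were those of Cyp3a11, Cyp2r1, Cyp2c50 (0.53, adjusted p = 0.0371), Cyp3a25 (0.39, adjusted p = 0.0454), Cyp2c54 (0.41, adjusted p = 0.0458) and Cyp2c38. Each was lost on leaving out 6 to 9 of the 12 time points, with adjusted p up to 0.130. Cyp2r1, a vitamin D 25-hydroxylase, had introns at 0.769, 0.846 and 1.02 FPKM in Nono-/- and 0.723, 0.843 and 1.06 FPKM in wild type as deposited, with medians that nearly coincide, and 0.25 (adjusted p = 0.0294) after scaling. Cyp3a11 introns had 21.6, 33.7 and 46.8 FPKM in Nono-/- and 17.7, 27.9 and 41.3 FPKM in wild type (0.51, adjusted p = 0.0255), and those of Cyp2c38 had 0.0800, 0.206 and 0.781 FPKM in Nono-/- and 0.172, 0.490 and 0.842 FPKM in wild type (-0.75, adjusted p = 0.0459).
Over the exon and intron tables of both fractions, 18 members were called at least once, 13 higher and 5 lower, with none called in both directions. These are 18 of 42 members tested at least once, beside 44.8% of all 13181 genes so tested, a share near the background. Another 24 members were tested without a call, and 20 were below the filter everywhere.

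Exon signal of most members was lower in nuclear RNA than in total RNA of the same pools, and that of a few was higher. Over 31 members the median ratio of mean nuclear to mean total exon FPKM was 0.1101 in Nono-/- and 0.147 in wild type, against 0.360 and 0.421 over 9871 genes. Cyp2e1 had the lowest ratio, 0.0384 in Nono-/- and 0.0460 in wild type. Ratios compare FPKM within each fraction, so they give relative and not absolute shares of transcripts.
Cyp2j9 had 3.10 in Nono-/- and 2.55 in wild type, and nuclear signal was the higher in all 12 pools of each genotype. Cyp2c53-ps had 2.98 in Nono-/- and 2.56 in wild type, also in every pool. Cyp2d37-ps had 2.57 and Cyp2d13 1.68 in Nono-/-, against 2.91 and 2.12 in wild type.
Cyp2c38 was near even, at 1.11 in Nono-/- and 1.36 in wild type. Cyp3a25 stood at 0.810 in Nono-/- and 0.781 in wild type, while its near-copy Cyp3a59 stood at 0.429 in Nono-/- and 0.393 in wild type. The entries for Cyp3a25, Cyp2c53-ps, Cyp2d37-ps, Cyp2d13 and Cyp2r1 are transcripts that RefSeq lists as non-coding, and the table condenses each gene to 1 entry. Cyp2r1 stood at 0.277 in Nono-/- and 0.304 in wild type, below the medians over all genes. Its exon entry is 985 bases long, and all values given for Cyp2r1 come from that non-coding transcript.

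**Figure D4:**
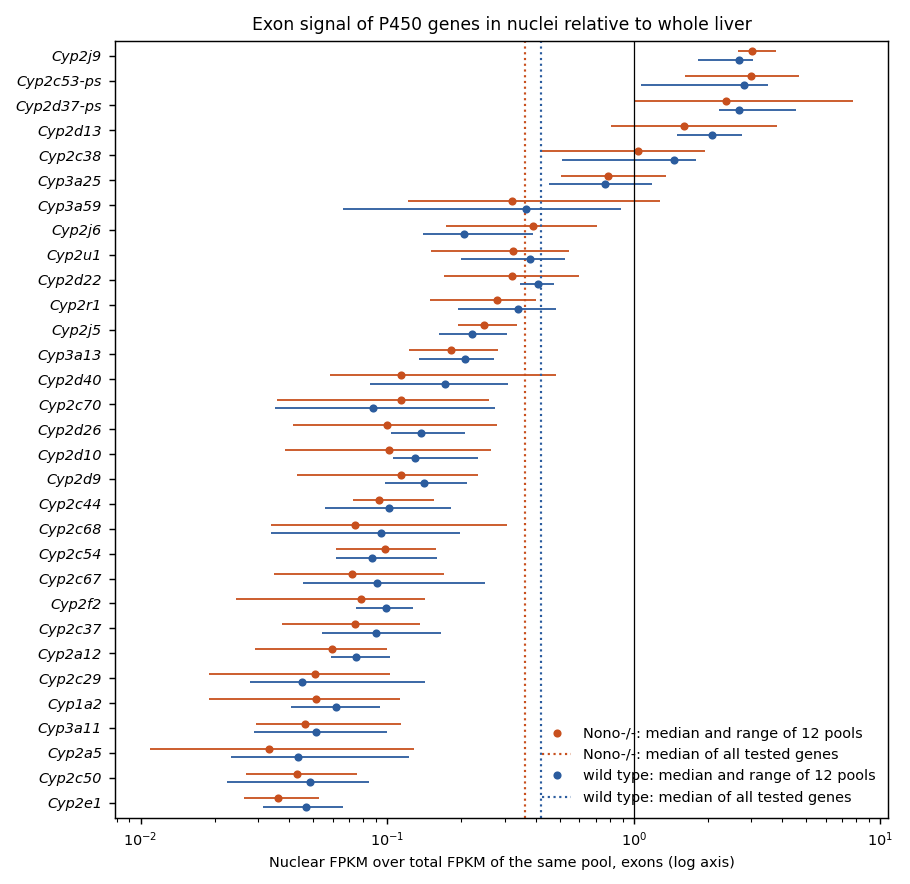
Nuclear over total exon FPKM of the same pool (log axis) for the 31 P450 genes tested in both fractions; points are medians and bars the lowest to highest of 12 pools, Nono-/- above wild type, and dotted lines are the medians over all tested genes. Most members lie left of both dotted lines, and Cyp2j9 and Cyp2c53-ps lie wholly right of 1.

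Daily rhythm was tested in exons of total RNA and introns of nuclear RNA. In total RNA exons 7 of 37 members passed for a 24 h rhythm in Nono-/-, against 29.6% of all genes, and 8 in wild type, against 31.8%. Both genotypes shared 6: Cyp2a5, Cyp2b10, Cyp2c53-ps, Cyp2e1, Cyp3a25 and Cyp3a59. Cyp2c39 passed in Nono-/- and Cyp2r1 and Cyp2f2 in wild type.
In nuclear introns 15 of 37 members passed in Nono-/-, against 32% of all genes, and 10 in wild type, against 21%, with 9 in both. The members' median fitted peak-to-trough fold there was 2.00 in Nono-/- and 1.75 in wild type, against 1.41 and 1.33 over all genes. The difference in rhythm between genotypes was tested directly. In limma it passed for 0 members and 0 of all genes in either table, so the genes called in a single genotype were not shown to differ. At an unadjusted p under 0.05 limma's test passed for 2 of 37 members in total exons, against 10.66% of all genes. In nuclear introns it passed for 1 of 37, against 6.73% of all genes.

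Cyp2a5, the coumarin 7-hydroxylase, had the largest fitted swing of the members tested in nuclear introns, in both genotypes. Nuclear introns had 0.216, 0.657 and 6.55 FPKM in Nono-/- and 0.243, 0.557 and 5.97 FPKM in wild type, with the highest library at ZT8 in Nono-/- and ZT10 in wild type. The fitted peak-to-trough difference was 22.8-fold with a peak at ZT8.85 in Nono-/- (adjusted p = 8.14e-06) and 17.7-fold at ZT7.78 in wild type (adjusted p = 1.41e-05).
In exons the fitted peaks were later. Nuclear exons had 1.18, 7.08 and 24.8 FPKM in Nono-/- and 1.74, 8.82 and 26.3 FPKM in wild type, and the fitted peak was at ZT10.8 in Nono-/- and ZT11.03 in wild type. Total RNA exons had 54.4, 229 and 308 FPKM in Nono-/- and 61.3, 197 and 354 FPKM in wild type, with fitted swings of 4.69-fold at ZT15.3 in Nono-/- (adjusted p = 3.38e-05) and 5.03-fold at ZT14.4 in wild type (adjusted p = 1.20e-05). The total exon peak thus came 6.44 h after the nuclear intron peak in Nono-/- and 6.65 h after it in wild type.

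Cyp2e1 showed the same order with less swing. Nuclear introns had 25.8, 57.4 and 96.5 FPKM in Nono-/- and 28.1, 53.9 and 111 FPKM in wild type and peaked at ZT6.54 in Nono-/- and ZT6.97 in wild type, with swings of 3.46-fold and 3.16-fold (adjusted p = 0.00507 and 0.00997). Total exons peaked at ZT13.2 in Nono-/- and ZT11.4 in wild type, with swings of 1.74-fold and 1.92-fold (adjusted p = 0.00223 and 0.00043).
Some genes swung in nuclear introns and not detectably in total RNA. Cyp2c29 nuclear introns had 3.19, 16.6 and 43.7 FPKM in Nono-/- and 4.73, 9.59 and 42.0 FPKM in wild type, highest at ZT16 in both genotypes, with swings of 5.37-fold in Nono-/- and 3.80-fold in wild type (adjusted p = 0.0101 and 0.0462). Its total exons swung by 1.12-fold in Nono-/- and 1.19-fold in wild type, which did not pass (adjusted p = 0.643 and 0.36). Cyp2c44, another epoxygenase, swung by 3.38-fold in Nono-/- and 2.84-fold in wild type in nuclear introns, peaking at ZT5.09 and ZT4.95, and its total exons did not pass. Cyp2j5 and Cyp2c55 swung in nuclear introns by 2.09-fold and 3.20-fold in Nono-/- and by 1.74-fold and 2.67-fold in wild type, with total exons that did not pass. The short Cyp2c50 intron entry, which was higher in total than in nuclear RNA, swung in nuclear RNA by 2.75-fold in Nono-/- and 5.15-fold in wild type.
Cyp2b10, the classical CAR target, peaked late in the night. Total exons had 2.6, 6.64 and 15.4 FPKM in Nono-/- and 1.41, 6.05 and 12.8 FPKM in wild type, highest at ZT20 in both genotypes, with swings of 3.41-fold at ZT21.3 in Nono-/- and 5.16-fold at ZT21.4 in wild type (adjusted p = 0.00165 and 7.83e-05). Nuclear introns, at 0.0160, 0.0935 and 0.425 FPKM in Nono-/- and 0.0110, 0.123 and 0.254 FPKM in wild type, peaked at ZT17.2 in Nono-/- and ZT17.7 in wild type.

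Cyp3a25 and Cyp3a59 peaked in the light phase. Total exons of Cyp3a25 swung by 1.70-fold at ZT8.91 in Nono-/- and 2.07-fold at ZT8.29 in wild type, and those of Cyp3a59 by 1.73-fold at ZT10.6 and 1.90-fold at ZT9.49. The pseudogene Cyp2c53-ps had total exons at 0.409, 1.43 and 4.46 FPKM in Nono-/- and 0.399, 1.06 and 4.05 FPKM in wild type, with swings of 5.48-fold at ZT18.0 in Nono-/- and 4.08-fold at ZT16.9 in wild type.
The members called in a single genotype in total exons were these. Cyp2r1 had total exons at 10.2, 12.0 and 15.7 FPKM in Nono-/- and 8.97, 10.2 and 14.5 FPKM in wild type, with swings of 1.15-fold in Nono-/- and 1.48-fold in wild type. Cyp2f2 swung by 1.26-fold in Nono-/- and 1.55-fold in wild type. Cyp2c39 had 0.416, 0.666 and 1.09 FPKM in Nono-/- and 0.425, 0.671 and 0.967 FPKM in wild type and swung by 1.93-fold in Nono-/- and 1.22-fold in wild type.
A curve with a second harmonic left 5 of 37 members in wild-type total exons, against 18.7% of all genes. In nuclear introns it left 9 in Nono-/-, against 15.7%, and 5 in wild type, against 10.1%.

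**Figure D5:**
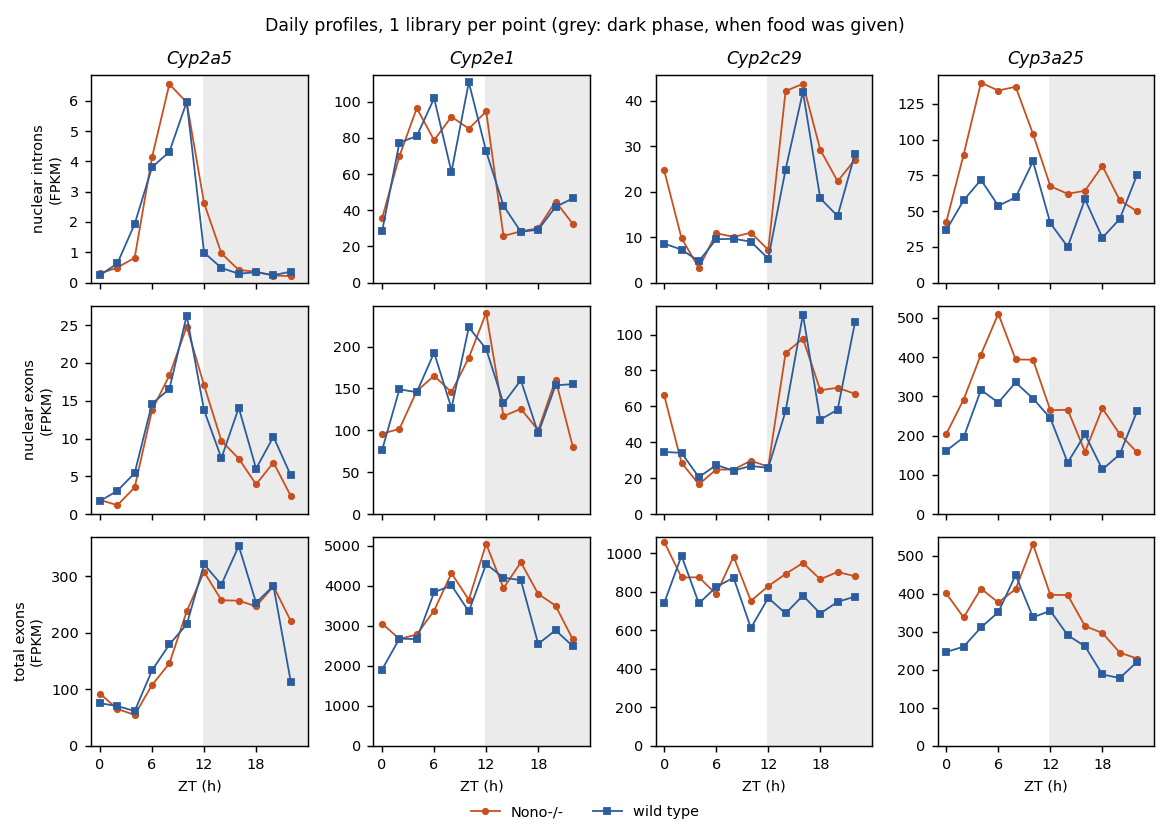
FPKM of Cyp2a5, Cyp2e1, Cyp2c29 and Cyp3a25 (columns) in nuclear introns, nuclear exons and total exons (rows) by ZT in h, 1 library per point for Nono-/- and wild type; grey marks the dark phase. For Cyp2a5 nuclear introns are highest at ZT8 in Nono-/- and ZT10 in wild type, and total exons at ZT12 in Nono-/- and ZT16 in wild type, and for Cyp2c29 the night rise of nuclear introns is not seen in total exons.

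Genes that regulate or serve the P450 enzymes were read from lists. Of 11 receptors tested in total exons (AhR, CAR, PXR, glucocorticoid and related receptors), 1 was lower and none higher: Ppara, the receptor for fatty acids, averaged 31.5 ± 11.4 FPKM in Nono-/- and 36.8 ± 9.81 FPKM in wild type (SD, n = 12 each), a difference of -0.29 ± 0.08 (SE, adjusted p = 0.0207). Of 14 clock-linked and liver transcription factors, 3 were lower. Hnf4a, a main regulator of hepatocyte genes, averaged 82.2 ± 10.01 FPKM in Nono-/- and 96.9 ± 22.4 FPKM in wild type, a difference of -0.23 ± 0.07 (SE, adjusted p = 0.03). In nuclear introns Hnf4a averaged 7.62 ± 2.08 FPKM in Nono-/- and 11.5 ± 2.31 FPKM in wild type, a difference of -0.60 ± 0.11 (SE, adjusted p = 0.00231).
In nuclear exons 5 of the 11 receptors were called, 2 higher and 3 lower, and 3 of the 14 factors, all lower, beside 34.3% of all genes called there. Nr1i2, which encodes PXR, was lower, at -0.60 ± 0.14 (SE, adjusted p = 0.00503). In nuclear introns 1 of 11 receptors and 3 of 12 factors were called, all lower, beside 17.9% of all genes. In total exons Hlf, a clock-controlled factor, was also lower, with a difference of -0.43 ± 0.10 (SE, adjusted p = 0.0116). Among 14 electron donors and heme synthesis genes 3 were higher and 1 lower in total exons, with a median effect of 0.0033, and 1 was higher and 4 lower in nuclear exons, with a median of -0.16. Por was among the lower ones in nuclear exons, at -0.78 ± 0.19 (SE, adjusted p = 0.006). In nuclear introns limma called 0 of these 14 genes, Por included, beside 17.9% of all genes. The value of Por in total exons is not given here. In total exons Cyb5a, the cytochrome b5 that passes electrons to P450 enzymes, was higher. It averaged 1499 ± 161 FPKM in Nono-/- and 1193 ± 142 FPKM in wild type, a difference of 0.31 ± 0.08 (SE, adjusted p = 0.0138). Uros of heme synthesis differed by 0.22 ± 0.07 (SE, adjusted p = 0.0426), and Cyb5b by -0.14 ± 0.04 (SE, adjusted p = 0.0328).
Of 11 other genes known to respond to AhR, CAR or PXR, 2 were higher in total exons: Sult1d1 at 0.44 ± 0.14 (SE, adjusted p = 0.0463) and Nqo1 at 0.29 ± 0.08 (SE, adjusted p = 0.0312). Of 8 growth hormone axis genes limma called 0 in total exons, and 0 at an unadjusted p under 0.05. These shares in total exons stand beside 11.1% of all genes called in either direction. In nuclear exons 1 of the 8 growth hormone axis genes was higher, and 3 had an unadjusted p under 0.05. Of 8 tested genes that respond to AhR, CAR or PXR, 1 was higher and 2 lower there, beside 34.3% of all genes called. In nuclear introns limma called 0 of the former and 2 of the latter, both higher, beside 17.9% of all genes.

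Markers of liver cell types were read the same way. In total exons 4.49% of all genes were called higher and 6.57% lower, and 26.35% had an unadjusted p under 0.05 in limma. Of 7 hepatocyte markers limma called 0 in total exons, and 2 had an unadjusted p under 0.05. Their summed level was 33519, 42780 and 49733 FPKM at the lowest, median and highest of the Nono-/- libraries, and 31360, 41486 and 47316 FPKM in wild type. Of 8 pericentral markers Oat was higher (0.38 ± 0.09 SE, adjusted p = 0.0114), and of 8 periportal markers Aldh1b1 was higher (0.69 ± 0.13 SE, adjusted p = 0.00403).
In nuclear exons 2 of 7 hepatocyte, 1 of 7 pericentral and 2 of 8 periportal markers were lower and none of them higher. These counts stand beside 18.5% of all genes called lower there and 15.9% called higher. In nuclear introns 1 hepatocyte marker was lower, 1 pericentral marker higher, and 1 periportal marker higher and 1 lower. There 8.48% of all genes were called higher and 9.46% lower.
Several Kupffer cell markers were called higher in Nono-/-. In total exons 5 of 8 were higher, beside 4.49% of all genes, with a median effect of 0.34. Their summed level was 90.8, 154 and 242 FPKM in Nono-/- and 73.5, 122.8 and 186 FPKM in wild type, ranges that overlap. With the intron share as a covariate limma called 23 of all genes in total exons, and the values of these markers in that fit are not given here. In nuclear exons 4 of 7 and in nuclear introns 4 of 8 of these markers were higher, beside 15.9% and 8.48% of all genes. Timd4, for example, averaged 4.08 ± 0.824 FPKM in Nono-/- and 2.99 ± 1.01 FPKM in wild type, and Cd5l 50.3 ± 16.7 FPKM in Nono-/- and 37.1 ± 14.0 FPKM in wild type. Of 6 stellate markers Dcn was higher (0.23 ± 0.07 SE, adjusted p = 0.0385), of 6 endothelial markers limma called 0, with 1 at an unadjusted p under 0.05, and of 5 bile duct markers 2 were tested and 0 called, with 0 at an unadjusted p under 0.05, the other 3 (Krt7, Krt19 and Epcam) averaging under 0.5 FPKM. The part of these other cells in the P450 results was not tested.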

How the data were processed

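Per the labels, RNA was extracted from pools of 2 livers with Trizol and sequenced as stranded, rRNA-depleted libraries. Per the submitters' processing notes FastQC 0.11.2 and STAR 2.4.0k were used with mm10, and per the file headers the authors made FPKM values with HOMER, over exons and over introns, condensed to 1 entry per gene. The HOMER version and its strand option are not given in the sources used here. All 48 library columns were used (0 were left out), no 2 libraries were identical, and the values gave back whole reads, from which depth was summed.

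FPKM were scaled to each library's median ratio and tested as log2(FPKM + 0.1) for exons and log2(FPKM + 0.05) for introns, so fold changes of low genes are understated. Genes with a mean under 0.5 (exons) or 0.1 (introns) FPKM over the 24 libraries of a fraction were left out. limma 3.58.1 (R 4.3.3, trend) was fitted per table with genotype and a 24 h cosine and sine for each genotype. F tests of these terms gave rhythms, and a fit on nuclear minus total log2 values of each pool gave the ratio. P-values were Benjamini-Hochberg adjusted over all genes tested. Tested on simulated data of 11352 genes for the genotype effect in total exons, it found 76% of genes changed by 0.5 and 98% of those changed by 1 on the log2 scale. The simulated noise was independent for each gene and library, with no shift in intron share, so these rates may not hold for the real libraries. Shared sequence was counted in Python 3.11.15 with pandas 2.3.3 and Biopython 1.88, and figures drawn with matplotlib 3.10.9.

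Alternatives were another pseudocount, no filter, a stricter filter, no scaling, 2 harmonics, a covariate for the share of reads in introns, a block for each time point, and leaving out each time point. Each library's deviations from its genotype's mean were correlated with those of the other genotype at the same time. They correlated above 0.1 in 12 of 12 pairs in both intron tables and in total exons, while nuclear exons had 11 of 12. Any daily rhythm that the genotypes share is part of these deviations, so the correlations cannot show a pairing beyond the time of day. The pairing comes from the labelled time. With 1 library per time and genotype, a rhythm and a difference between single pools cannot be told apart. The column names carry numbers that are consecutive within groups, so handling order and group cannot be told apart either. The members and lists were chosen with earlier results of these data known. Full values are given for the 12 highest members, for members called for genotype (up to 15 a table) and for the strongest rhythms in total exons. List genes are given by the smallest p, up to 5 a list. Cyp1a2, Cyp2a4, Cyp2b9, Cyp1a1, Por and Nr1i2, the additional rhythms and the intron-table calls were chosen after their values were seen. Values of some list genes are not reported here.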

Additional observations from a re-analysis of the deposited data

Results flagged for a closer look

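The genotype effect differed between nuclear and total exons of the same pools for 4 P450 genes, by limma's test of the nuclear to total ratio. On the log2 scale, Nono-/- minus wild type, this difference was 1.004 for Cyp2j6, 0.52 for Cyp2j9, 0.43 for Cyp2j5 and 0.54 for Cyp2c53-ps. The intron share of the libraries moved with genotype, and its part in these values was not tested beyond the covariate given with them.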

How the results depend on the processing

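Of 38 member results 9 were kept in every alternative. Counting each result under each alternative gave 719 refits. Of these 532 kept direction and side of the threshold, 186 no longer passed and 1 reversed, the Cyp2c53-ps ratio, at -0.054 with the intron share as a covariate. With that covariate 0 members were higher and 0 lower in total exons, against 0.203% of all genes called in either direction. In nuclear exons 7 members stayed called, against 9.98% of all genes. These were Cyp2c50, Cyp2c54, Cyp2j5, Cyp2j6, Cyp2j9 and Cyp3a25, higher, and Cyp2f2, lower. In total introns 2 were called, 1 of them higher, against 0.276%. In nuclear introns 6 were called and 0 were lower, against 8%, and in the ratio 0 were called, against 0.0608%. With no scaling 9 were called in total exons, against 11.5% of all genes, and 5 were higher in nuclear exons, against 3.62%. In total introns 0 were higher and 5 lower, against 1.08% and 36.6%. In the ratio 2 were higher and 3 lower, against 2.01% and 24.8%. With no filter 2 were higher and 0 lower in total introns and 0 lower in nuclear introns. The higher pseudocount and the stricter filter each left 0 lower in total introns. With 2 harmonics 0 were lower in nuclear introns, and rhythms numbered 5 in wild-type total exons, against 18.7% of all genes. In nuclear introns they numbered 9 in Nono-/-, against 15.7%, and 5 in wild type, against 10.1%. The replicate block by time gave 14 higher in nuclear introns, against 10.9% of all genes. Leaving out single time points gave 2 to 6 higher in total exons, 2 to 7 lower in nuclear exons, 3 to 8 higher and 0 to 1 lower in nuclear introns, 1 to 8 higher and 0 to 1 lower in total introns, 0 to 3 lower in the ratio, and 4 to 9 rhythms in wild-type nuclear introns. Shares of all genes with no filter, the higher pseudocount, the stricter filter or a time point left out are not given here. The cause was not tested. Levels near 0 FPKM rest on few reads, and shared sequence limits copies such as Cyp3a41a, Cyp3a41b and Cyp2c40.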
